A study of Rattus norvegicus with 9 samples.

Results

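The 10 genes described here encode the core of store-operated calcium entry in rat mast cells (MCs) and were chosen by gene symbol: the channel genes Orai1, Orai2 and Orai3, the sensor genes Stim1 and Stim2, the inositol trisphosphate (IP3) receptor genes Itpr1, Itpr2 and Itpr3, and the ion channel genes Trpm4 and Kcnn4. All 10 were found among the 38490 gene rows of the deposited files and belong to the 18006 genes with a value. Their identifiers in the files are 304496, 304592 and 309000 for Orai1, Orai2 and Orai3, 361618 and 117087 for Stim1 and Stim2, 25262, 81678 and 25679 for Itpr1, Itpr2 and Itpr3, 171143 for Trpm4 and 65206 for Kcnn4. In MCs, cross-linking of the IgE receptor activates phospholipase C, and the IP3 it makes opens IP3 receptors in the membrane of the endoplasmic reticulum, so that stored calcium leaves. STIM proteins sense the emptied store and open ORAI channels in the plasma membrane, and the calcium that enters supports degranulation and cytokine transcription. Trpm4 encodes a cation channel and Kcnn4 a potassium channel, both opened by calcium, which set the membrane potential that drives the entry.

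RNA was sequenced in 3 groups of 3 samples of RBL-2H3, a line of basophilic leukemia cells from the rat that serves as a model of MCs. By the labels, DNP samples received anti-DNP IgE at 50 ng/mL over 12 h and then the antigen DNP-HSA at 100 ng/mL over 4 h. PF samples had the same steps with a 1 h PF pretreatment before the antigen, and the labels do not identify PF. In 1 label field, PF samples 1, 2 and 3 were stimulated over 4, 5 and 6 h, whereas the shared protocol field says 4 h, so treatment and time cannot be told apart in PF samples 2 and 3. Ctrl samples are called untreated in 1 field while the protocol field describes sensitization and stimulation for every sample, and whether they received IgE is not settled here. Values are read as FPKM, fragments of a gene scaled to its length and to all mapped fragments of the sample, a unit inferred from the values. Summed over the 18006 genes with a value, samples Ctrl 1, 2 and 3 held 580702, 591539 and 584498 FPKM. The sums were 578291, 573023 and 582577 FPKM in DNP and 616992, 630069 and 610206 FPKM in PF, each PF sum being above each sum of the other groups. The depth in reads is unknown. Nothing in the labels says that the replicates were separate cultures, so p-values measure the spread between these samples, which may be technical.

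MC identity was checked first. Of 12 MC marker genes, 10 had a value, and their summed level lay between 2579 and 2801 FPKM in the 9 samples. Fcer1g, the receptor's signaling chain, was the most abundant, at 631 to 824 FPKM. Fcer1a, Ms4a2, Kit, Gata2, Hdc and Mcpt2 each exceeded 122 FPKM in all 9 samples, Cpa3 ran from 53.0 to 69.6, Cma1 from 18.6 to 21.5 and Mcpt1 from 5.58 to 11.0 FPKM, and Tpsab1 and Tpsb2 had no value. The label peripheral blood was checked through markers of other cells. The 7 T and B cell markers with a value summed to 8.02 to 11.1 FPKM, and 5 of them were below 1 FPKM in all 9 samples. Cd3e, the most abundant, had 6.74 to 9.52 FPKM while Cd3d was listed at 0 in 8 samples and Cd4 stayed at or below 0.10 FPKM. The 5 macrophage and neutrophil markers with a value summed to 25.2, 25.6 and 24.1 FPKM in Ctrl, 31.5, 34.8 and 33.7 FPKM in DNP and 27.0, 28.4 and 29.3 FPKM in PF. Nearly all of it was Itgam, with 23.1 to 33.8 FPKM, while Adgre1, Csf1r and Cd163 stayed at or below 0.44 FPKM. The neutrophil markers S100a8, S100a9, Mpo and Elane had no value, so this list says little of neutrophils. The summed level of the 9 fibroblast and epithelial markers was at most 1.75 FPKM, with Krt8 the most abundant. In bulk RNA, fewer cells of a type and less RNA per cell cannot be told apart.

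Antigen stimulation was visible in the transcripts. Egr1, an immediate early transcription factor, was at 3.59, 4.00 and 3.35 FPKM in Ctrl, 158, 176 and 174 FPKM in DNP and 219, 221 and 238 FPKM in PF. Il4, a type 2 cytokine gene, was at 2.47, 2.26 and 2.27 FPKM in Ctrl, 11.8, 12.7 and 12.5 FPKM in DNP and 2.55, 3.71 and 4.22 FPKM in PF. Mean Fos was 13.0, 33.6 and 77.4 FPKM in Ctrl, DNP and PF, and mean Ccl2 was 224, 677 and 273 FPKM. Egr1 and Fos were therefore highest in PF, whereas Il4 and Ccl2 were highest in DNP.

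The test was limma on log2(FPKM + 1), run over all genes that reached 1 FPKM in 3 or more of the 6 samples of a comparison. A change is called at a Benjamini-Hochberg adjusted p of at most 0.05 over all genes tested. Fold changes on this scale understate the change of genes with low FPKM. Besides the values as deposited, scaled values were tested. Median ratio scaling divides each sample by its median ratio to a common reference, and sum scaling brings all samples to the same FPKM sum. DNP vs Ctrl sets stimulated cells beside controls that may or may not have received IgE. PF vs DNP sets pretreated beside stimulated cells, with the time of stimulation possibly differing as well, and PF vs Ctrl sets pretreated cells beside the controls. The comparisons share samples pairwise, so they are not independent of each other.

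In DNP vs Ctrl, 2 of the 8 members tested changed. Orai2 was lower and Itpr1 was higher, against 29.2% of all 10392 genes tested that changed, 14.7% higher and 14.4% lower. In PF vs DNP, 4 of 9 members changed, namely Orai2, Stim1, Stim2 and Itpr2, all of them lower, where 48.8% of 10329 genes changed, 18.1% higher and 30.7% lower. In PF vs Ctrl, 6 of 9 members changed, with Orai2, Stim2 and Itpr2 lower and Itpr1, Itpr3 and Trpm4 higher, where 57.7% of 10361 genes changed, 23.1% higher and 34.6% lower. Trpm4 reached the minimum level there only through its PF samples, and without it the count was 5 of 8. The share of members called was near the share of all genes in each comparison, so these counts are no result about the members as a set. The median log2 fold change of the members tested was 0.0036 in DNP vs Ctrl, -0.077 in PF vs DNP and -0.077 in PF vs Ctrl. Over all genes tested it was -0.0081, -0.038 and -0.047.

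Transcript levels spanned a wide range among the members. In Ctrl cells Orai1, which encodes the main pore subunit of the calcium release-activated channel, and Stim1, its principal activator, were the most abundant, with means of 54.6 ± 4.97 and 51.9 ± 2.55 FPKM (SD, n = 3). These levels exceeded those of 90.0% and 89.5% of the 18006 genes. Orai2 followed at 21.1 ± 0.920 FPKM, Itpr2 at 15.6 ± 0.850 FPKM and Stim2 at 12.8 ± 0.414 FPKM. Itpr3 had 4.73 ± 0.290, Orai3 3.88 ± 0.616 and Itpr1 3.26 ± 0.0945 FPKM. Trpm4 was below 1 FPKM and Kcnn4 near 0. Neighbours in the Ctrl order overlapped between samples for Orai1 and Stim1 and for Itpr3 and Orai3, and the other neighbours did not overlap. DNP cells had Stim1 above Orai1 without overlap, and Orai2, Itpr2 and Stim2 followed with overlap between neighbours. In PF cells the order of the middle members differed: Stim2 and Itpr2, which overlapped each other, had higher levels than Orai2.

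**Figure D1:**
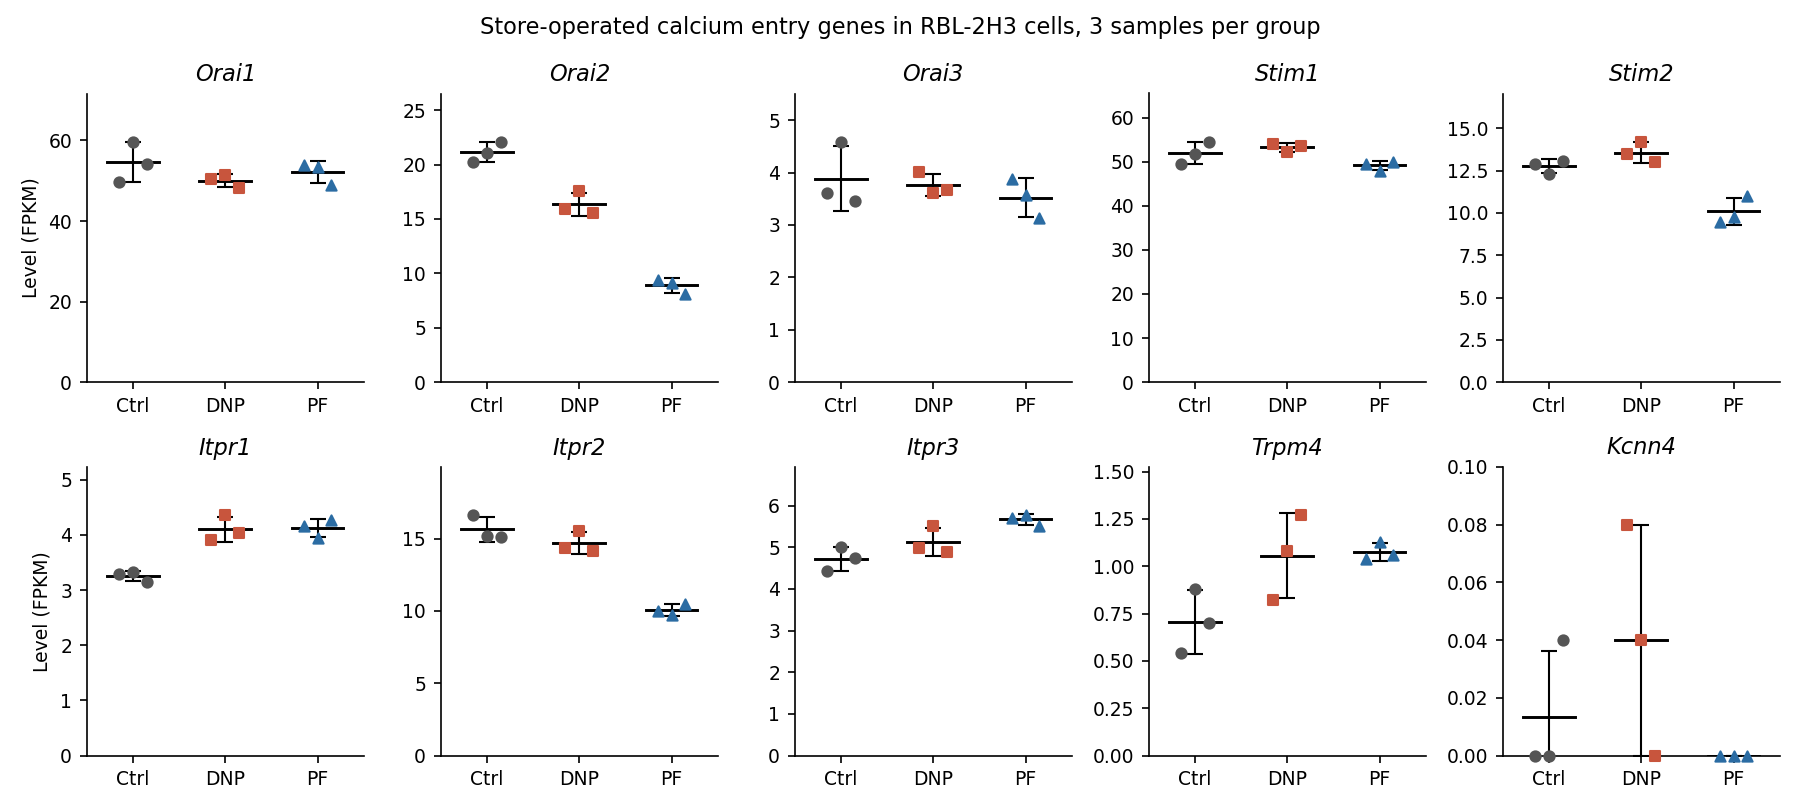
FPKM (vertical axes, each from 0) of the 10 genes in the Ctrl, DNP and PF groups (horizontal axes), with points for the 3 samples of a group, horizontal lines for the mean and error bars for the SD. Orai2 lies at 20.3 to 22.1 FPKM in Ctrl, 15.5 to 17.5 in DNP and 8.13 to 9.43 in PF, and Orai1 overlaps between all groups.

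Among the channel genes, Orai2 changed in each comparison. It encodes a paralog of ORAI1 that can join ORAI1 in mixed channels. Orai2 was at 20.3, 21.0 and 22.1 FPKM in Ctrl, 16.0, 17.5 and 15.5 FPKM in DNP and 9.43, 9.15 and 8.13 FPKM in PF. The 3 groups formed separate steps without overlap, with Ctrl highest and PF lowest. From Ctrl to DNP its mean fell by 22.7%, and the log2 fold change was -0.35 (limma adjusted p = 0.0032, standard error 0.0579). From DNP to PF its mean fell by 45.5%, and on the log2 scale the difference was -0.81 (limma adjusted p = 2.61e-05, standard error 0.0696). Between Ctrl and PF the log2 fold change was -1.16 (limma adjusted p = 3.41e-06, standard error 0.0656). Counted from the lowest log2 fold change, Orai2 was gene 466 of 10392 in DNP vs Ctrl, 417 of 10329 in PF vs DNP and 172 of 10361 in PF vs Ctrl. With PF sample 1 alone, the sample given 4 h in both label fields, its log2 fold change against DNP was -0.73, a value with no spread within PF and so given without a p.

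Orai1 stayed at a high level. It was at 49.8, 59.7 and 54.2 FPKM in Ctrl, 50.4, 51.4 and 48.3 FPKM in DNP and 53.9, 53.4 and 48.9 FPKM in PF. All groups overlapped, and Ctrl sample 2 was the highest of the 9. Its log2 fold change was -0.12 in DNP vs Ctrl (95% confidence interval -0.26 to 0.02, limma adjusted p = 0.187). Without Ctrl sample 1, the lowest Ctrl sample, it was -0.18 with a limma adjusted p of 0.0423, and without Ctrl sample 2, the highest, it was -0.054 with one of 0.472. In PF vs DNP the log2 fold change was 0.056 (95% confidence interval -0.05 to 0.16), so a fall of Orai1 as large as that of Orai2 lay outside its interval. Leaving out 1 sample moved the PF vs DNP value to between 0.0306 (without PF sample 1) and 0.0997 (without PF sample 3). Orai3, the third ORAI paralog, ran from 3.13 to 4.59 FPKM over the 9 samples with all groups overlapping. Its log2 fold changes were -0.03, -0.08 and -0.11 in DNP vs Ctrl, PF vs DNP and PF vs Ctrl, none of them called. With 1 sample left out it ran from -0.17 (without Ctrl sample 3) to -0.0053 (without Ctrl sample 2) in PF vs Ctrl, and from -0.13 (without PF sample 1) to -0.013 (without PF sample 3) in PF vs DNP.

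**Figure D2:**
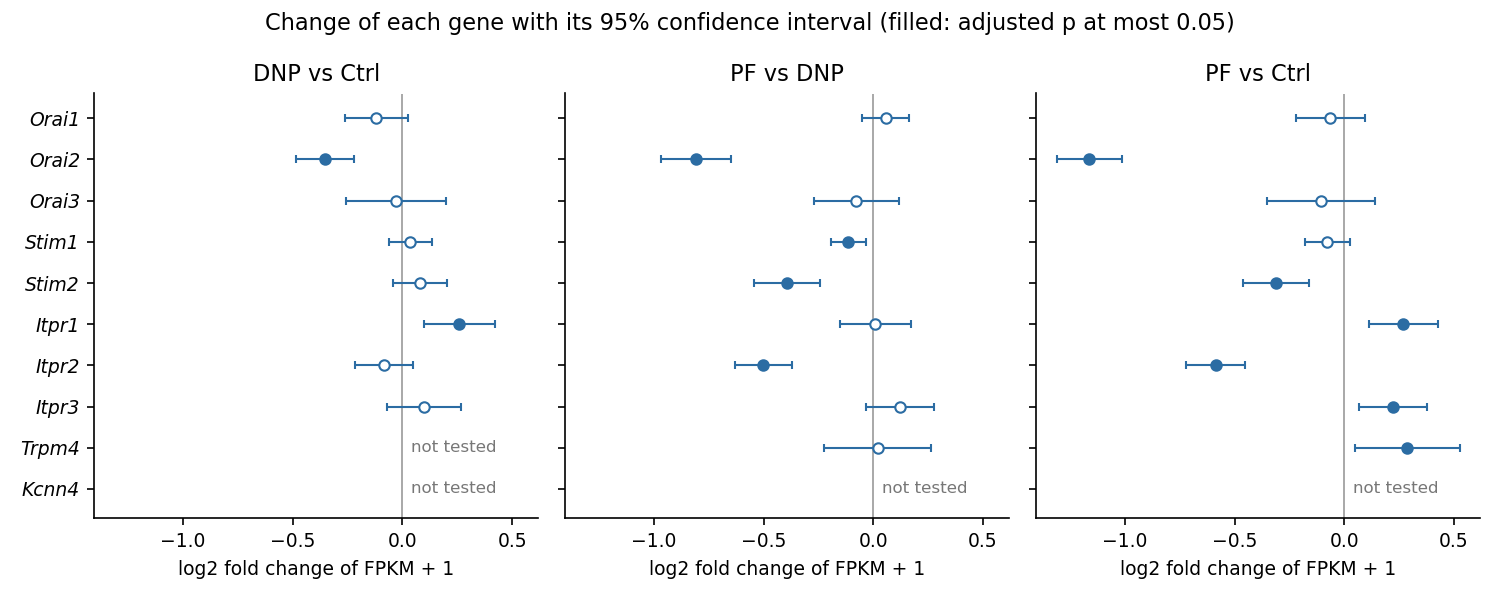
Log2 fold change of FPKM + 1 (horizontal axes) of each gene in the 3 comparisons, with 95% confidence intervals from limma and points filled where the adjusted p is at most 0.05. Orai2 lies at -0.35, -0.81 and -1.16 from left to right, and the filled point of Trpm4 rests on a gene that passed the level filter through PF samples only.

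Of the sensor genes, Stim2 was lower in PF. STIM2 responds to smaller losses of stored calcium than STIM1 and is known for keeping basal calcium steady. Stim2 was at 12.9, 12.3 and 13.1 FPKM in Ctrl, 13.5, 14.2 and 13.0 FPKM in DNP and 9.49, 9.77 and 11.0 FPKM in PF. Every PF sample was below every sample of the other groups, whereas Ctrl and DNP overlapped. In PF vs DNP the log2 fold change was -0.39 (limma adjusted p = 0.0012, standard error 0.066), and in PF vs Ctrl it was -0.31 (limma adjusted p = 0.0036). DNP vs Ctrl gave 0.081, which did not pass the test (95% confidence interval -0.04 to 0.20, limma adjusted p = 0.291). This value was 0.048 without DNP sample 2 and 0.11 without DNP sample 3. Stim1 was at 49.5, 51.7 and 54.6 FPKM in Ctrl, 54.0, 52.1 and 53.6 FPKM in DNP and 49.6, 48.0 and 49.9 FPKM in PF. The PF samples lay below all DNP samples by a narrow margin and overlapped Ctrl. The log2 fold change of Stim1 in PF vs DNP was -0.11 (limma adjusted p = 0.0248, standard error 0.0349). This call was lost without DNP sample 1 (limma adjusted p = 0.0864), without DNP sample 3 (0.0702) or without PF sample 2 (0.0708), with median ratio scaling between samples (0.225) and without the mean-variance trend in limma (0.0565).

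The IP3 receptor genes moved in different directions. Itpr2, the most abundant of the family here and a receptor with high affinity for IP3, was at 16.6, 15.2 and 15.1 FPKM in Ctrl, 14.4, 15.6 and 14.1 FPKM in DNP and 9.98, 9.74 and 10.5 FPKM in PF. Ctrl and DNP overlapped, and every PF sample was lower than both. From DNP to PF its mean fell by 31.4%, and the log2 fold change was -0.50 (limma adjusted p = 0.000131, standard error 0.0569). In PF vs Ctrl the log2 fold change was -0.59 (limma adjusted p = 6.27e-05, standard error 0.059). In DNP vs Ctrl it was -0.085, which did not pass the test (limma adjusted p = 0.306). Leaving out 1 sample moved this value to between -0.12 (without DNP sample 2) and -0.043 (without Ctrl sample 1).

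Itpr1, best known as the receptor of neurons, was at 3.29, 3.33 and 3.15 FPKM in Ctrl, 3.91, 4.36 and 4.03 FPKM in DNP and 4.17, 3.95 and 4.27 FPKM in PF. DNP and PF samples overlapped, and both groups were above all Ctrl samples. The log2 fold change was 0.26 in DNP vs Ctrl (limma adjusted p = 0.0268, standard error 0.0714) and 0.27 in PF vs Ctrl (limma adjusted p = 0.00976, standard error 0.0693). The DNP vs Ctrl call was narrow: leaving out Ctrl sample 1, 2 or 3 gave limma adjusted p-values of 0.0558, 0.0549 and 0.0692, and leaving out DNP sample 2 or 3 gave 0.0879 and 0.063. With no filter on low values it was 0.0671. PF vs DNP gave 0.009 (95% confidence interval -0.15 to 0.17).

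Itpr3, the remaining receptor, was at 4.43, 5.01 and 4.74 FPKM in Ctrl, 4.99, 5.52 and 4.89 FPKM in DNP and 5.71, 5.77 and 5.52 FPKM in PF. The PF samples were above all Ctrl samples, and the highest DNP sample equalled the lowest PF sample. The log2 fold change in PF vs Ctrl was 0.22 (limma adjusted p = 0.0218, standard error 0.0678), and the others, 0.10 in DNP vs Ctrl and 0.12 in PF vs DNP, were not called. The DNP vs Ctrl value was 0.054 without DNP sample 2 and 0.13 without Ctrl sample 2, and the PF vs DNP value was 0.038 with sum scaling. The PF vs Ctrl call was lost without Ctrl sample 1 (limma adjusted p = 0.0751), PF sample 1 (0.0617) or PF sample 2 (0.0592).

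Trpm4 and Kcnn4 had the lowest levels of the members. Trpm4, whose channel lets sodium in and so lowers the drive for calcium, was at 0.54, 0.88 and 0.70 FPKM in Ctrl, 0.82, 1.08 and 1.27 FPKM in DNP and 1.04, 1.13 and 1.06 FPKM in PF. PF samples lay above all Ctrl samples, while DNP samples overlapped both groups. The log2 fold change in PF vs Ctrl was 0.29 (limma adjusted p = 0.042, standard error 0.104), in a gene that could enter that test only by being high in PF, and the call was lost without Ctrl sample 1 (0.14) or 3 (0.0878). It was also lost with 0.1 in place of 1 added to each FPKM (limma adjusted p = 0.0501) and with sum scaling (0.0676), and kept with no filter on low values (0.0372) and with median ratios (0.0269). In DNP vs Ctrl Trpm4 was below the filter, and with no filter its log2 fold change there was 0.27, not called (limma adjusted p = 0.178). In PF vs DNP its log2 fold change was 0.02. Kcnn4, whose potassium channel holds the membrane negative, was listed at 0 in 6 of the 9 samples. It had 0.04 FPKM in Ctrl sample 3, 0.08 FPKM in DNP sample 1 and 0.04 FPKM in DNP sample 2, and did not pass the filter in any comparison.

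Within each family the share of a paralog in the summed FPKM of a sample does not depend on scaling between samples. Orai2 made up 27.5%, 24.7% and 27.7% of ORAI FPKM in Ctrl, 22.7%, 24.2% and 23.0% in DNP and 14.0%, 13.8% and 13.5% in PF. The groups did not overlap, and the share was lowest in PF. Orai1 held a mean of 68.5 ± 1.29% in Ctrl, 71.4 ± 0.423% in DNP and 80.8 ± 0.535% in PF (SD, n = 3). Orai3 held a mean of 4.87%, 5.37% and 5.45%, with all groups overlapping. Stim2 made up 19.7 ± 0.822% of STIM FPKM in Ctrl, 20.3 ± 1.01% in DNP and 17.0 ± 1.00% in PF (SD, n = 3), and PF did not overlap the other groups.

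Itpr2 made up 68.3%, 64.6% and 65.7% of IP3 receptor FPKM in Ctrl, 61.8%, 61.2% and 61.3% in DNP and 50.3%, 50.1% and 51.8% in PF. Its share thus stepped down from group to group without overlap. Itpr1 held 13.5 to 14.2% in Ctrl, 16.8 to 17.5% in DNP and 20.3 to 21.0% in PF, without overlap. Itpr3 held 18.2 to 21.3% in Ctrl, 21.2 to 21.7% in DNP and 27.2 to 29.7% in PF, with Ctrl and DNP overlapping. Two-sided exact permutation tests gave p = 0.1 for each pair of groups that did not overlap, the smallest p that 3 samples against 3 allow. None of the 21 differences in share tested could therefore pass 0.05, and the shares of a family are not independent of each other. Summed over each family, mean ORAI FPKM was 79.6, 70.1 and 64.5 in Ctrl, DNP and PF, mean STIM FPKM was 64.7, 66.8 and 59.2, and mean IP3 receptor FPKM was 23.6, 23.9 and 19.9.

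**Figure D3:**
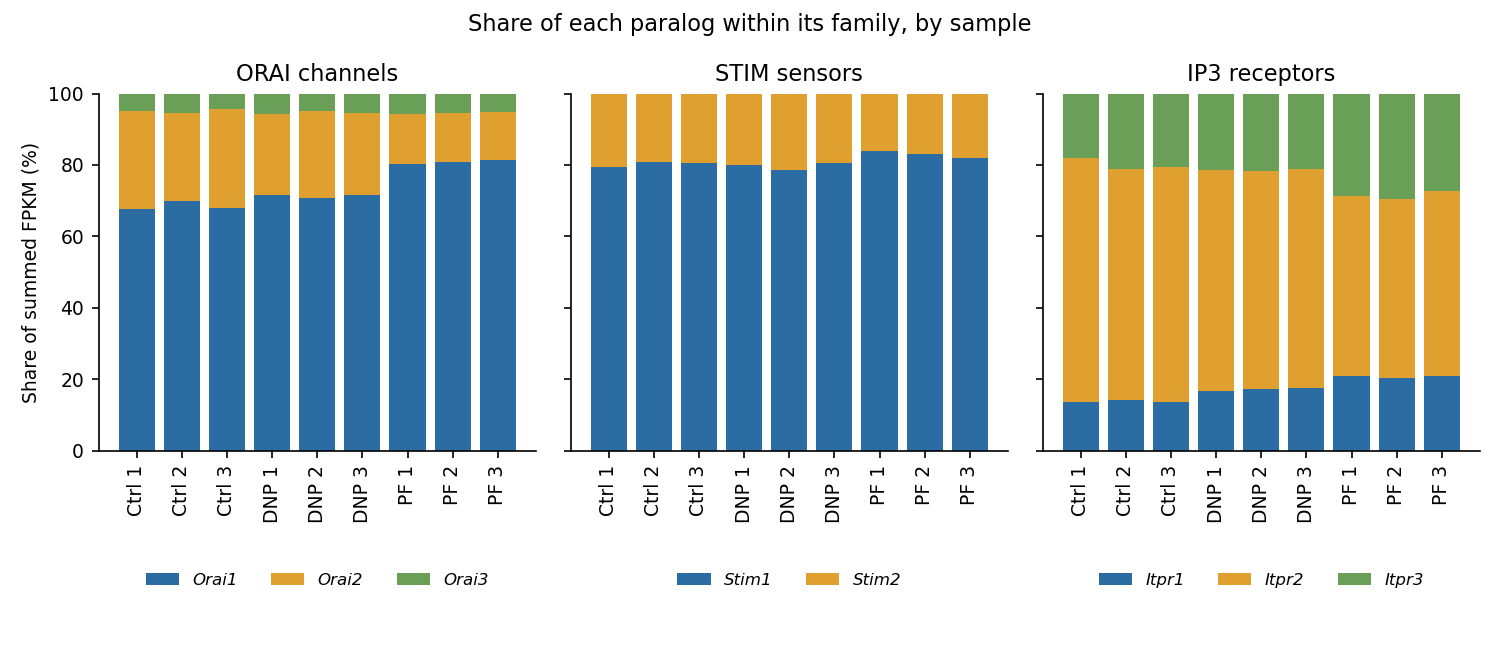
Share of each paralog in the summed FPKM of its family (vertical axis, percent) in each of the 9 samples (horizontal axis), as stacked bars. Orai2 is below 14.1% of ORAI FPKM in the PF samples and above 22.6% in all others, and Itpr2 is at 50.1 to 51.8% of IP3 receptor FPKM in PF.

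The scaling between samples bears on the smaller of these changes. As deposited, the median log2 difference over all genes was -0.04 for PF vs DNP, and it became 0.02 with median ratios and -0.13 with sum scaling. For PF vs Ctrl it was -0.05, 0.02 and -0.12. The share of higher genes among those called was 37.1% as deposited in PF vs DNP, 50.8% with median ratios and 16.8% with sum scaling. For PF vs Ctrl it was 40.0%, 51.3% and 26.7%. A scaling shifts all genes of a sample nearly alike, so values relative to the median of all genes hardly move by construction and say nothing of stability. They place each member beside the median gene, and Orai2 was at -0.77 in PF vs DNP under all 3 scalings. Itpr2 was at -0.46 as deposited, -0.46 with median ratios and -0.47 with sum scaling, and Stim2 at -0.36, -0.35 and -0.36. The 3 genes were called lower under each scaling. Stim1 was at -0.076, -0.070 and -0.083 relative to the median and lost its call with median ratios. Its log2 fold change itself was -0.11 as deposited, -0.054 with median ratios and -0.21 with sum scaling. In PF vs Ctrl, Itpr1 was at 0.32, 0.31 and 0.33 relative to the median and was called under each scaling, whereas Itpr3, at 0.27, 0.26 and 0.27, lost its call with sum scaling (limma adjusted p = 0.0842). Stim1 was called lower in PF vs Ctrl with sum scaling only (log2 fold change -0.16, limma adjusted p = 0.0249). With sum scaling the uncalled values of Orai1, Itpr1 and Trpm4 in PF vs DNP changed sign, to -0.041, -0.071 and -0.031.

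Over the 9 samples, the genes with the pattern most like Orai2 among 10279 other genes with a mean of at least 1 FPKM were Elf2, an ETS family transcription factor, Tnfsf9, a TNF family ligand, and Acrbp. Pearson's r of log2(FPKM + 1) was 0.995, 0.995 and 0.994, a description of samples that share the 3 groups. Mean Elf2 was 29.0, 24.8 and 14.7 FPKM in Ctrl, DNP and PF, mean Tnfsf9 was 2.38, 1.79 and 0.497 FPKM, and mean Acrbp was 9.37, 7.93 and 4.86 FPKM.

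Genes that act around the members were followed in lists, where higher and lower stand for calls by limma at the threshold above. The counts stand beside 14.7% higher and 14.4% lower over all genes tested in DNP vs Ctrl, 18.1% and 30.7% in PF vs DNP, and 23.1% and 34.6% in PF vs Ctrl, and no list was tested against other genes. Of 9 regulators of store-operated entry tested, 2 were lower in DNP than in Ctrl and 7 did not pass, at a median log2 fold change of -0.05: Slc35g1 (-0.35), a STIM1 partner, and Esyt1 (-0.19), a tether of the endoplasmic reticulum to the plasma membrane. From DNP to PF 4 were higher, with Esyt1 (0.20), Slc35g1 (0.20) and Saraf (0.14), an inhibitor of the entry, in front. The 2 lower ones were Tmem203 (-0.42) and Homer3 (-0.37), a scaffold that binds IP3 receptors, and the list's median was 0.099. Between Ctrl and PF Saraf was higher (0.24) and Tmem203 (-0.47) and Homer3 (-0.42) were lower, at a median of -0.014. With median ratios 3 were higher and 2 lower in that comparison, and with sum scaling 1 was higher and 4 lower. In PF vs DNP 6 were higher and 2 lower with median ratios, whereas with sum scaling the 4 higher calls were lost and 3 genes were lower.

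Of 10 genes of IP3 production and removal tested, 2 were higher in DNP than in Ctrl and 8 did not pass, at a median log2 fold change of 0.13. Inpp5a (0.39), which dephosphorylates IP3, and Impa2 (0.24), an inositol monophosphatase, were the higher ones. Between PF and DNP 3 were higher and 3 lower at a median of 0.014. Inpp5b (-0.54), Itpkb (-0.43), a kinase of IP3, and Plcb4 (-0.31) were lower, and Impa2 (0.22), Plcb3 (0.18) and Plcg2 (0.12) were higher, the last 3 calls being lost with sum scaling. Compared with Ctrl, PF had Impa2 (0.46), Inpp5a (0.45) and Plcg2 (0.21), the phospholipase C gamma form of many blood cells, higher and Inpp5b (-0.32), Itpkb (-0.28) and Plcb4 (-0.20) lower, at a median of -0.035.

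Pumps and exchangers move calcium across membranes, in most cases out of the cytosol. Atp2b1, a plasma membrane calcium pump, had a mean of 18.2 ± 1.18 FPKM in Ctrl, 24.1 ± 1.24 in DNP and 18.4 ± 0.727 in PF (SD, n = 3), so DNP was higher than Ctrl and PF. Its log2 fold changes were 0.39 in DNP vs Ctrl and -0.37 in PF vs DNP, both called. Atp2a3, which refills the store, was higher in DNP than in Ctrl (0.17) and in PF than in DNP (0.16). Of 6 pumps and exchangers tested, 2 were higher in DNP vs Ctrl at a median of 0.12, 1 was higher and 1 lower in PF vs DNP at 0.078, and 3 were higher and 1 lower in PF vs Ctrl at 0.11. The last were Atp2a3 (0.33), Atp2c1 (0.23) and Atp2a2 (0.16), with the mitochondrial exchanger Slc8b1 (-0.32) lower. Sum scaling removed the calls of Atp2a3 in PF vs DNP and of Atp2a2 and Atp2c1 in PF vs Ctrl.

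For mitochondrial uptake, 7 genes were tested in DNP vs Ctrl, with Letm1 (0.39) higher and Smdt1 (-0.22), a subunit of the calcium uniporter, lower, at a median of 0.074. Of 8 tested in PF vs DNP, Smdt1 (0.26) was higher and 7 did not pass, at -0.035, whereas 1 was higher and 2 lower with sum scaling and 2 were higher with median ratios. For PF vs Ctrl Letm1 (0.33) and Mcur1 (0.25) were higher and Micu2 (-0.21) was lower, at 0.077, where Mcur1 lost its call with sum scaling and Micu2 with median ratios, and Micu3 passed the filter through PF only. Of 8 calcium sensors and store buffers tested, 4, 5 and 6 were higher in DNP vs Ctrl, PF vs DNP and PF vs Ctrl and the others did not pass, at medians of 0.11, 0.16 and 0.29. Rcn2 (0.41) and Rcn1 (0.27) were among the higher ones in DNP vs Ctrl. For PF vs DNP Calm2 (0.27) and Calm3 (0.19) were among them, but with sum scaling 1 gene of the list was called higher, Calm3 was not called and Calu, called higher as deposited (0.094), changed sign. With median ratios 7 were higher. Rcn2 (0.61) and Calm2 (0.43) were among those higher in PF vs Ctrl.

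Of 12 other cation and potassium channels tested, 2 were higher and 2 lower in DNP vs Ctrl, at a median log2 fold change of -0.0038. Trpv2 (0.23) and the ATP-gated P2rx1 (0.14) were higher, and P2rx4 (-0.16) and Trpm7 (-0.16) were lower, with Trpm7 losing its call with sum scaling. Between DNP and PF 5 were lower and 7 did not pass, at -0.17, led by the inward rectifier Kcnj2 (-0.53), the proton channel Hvcn1 (-0.51) and the endolysosomal channel Tpcn1 (-0.40). With median ratios 3 were lower, and with sum scaling 7 were. Against Ctrl P2rx1 (0.18) was higher and 5 were lower, at -0.21, led by Kcnj2 (-0.65), Tpcn1 (-0.43) and Tpcn2 (-0.29), the last not called with median ratios.

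Markers of MCs and other cells also differed between the groups. Of 10 MC markers tested, 1 was higher and 4 lower in DNP vs Ctrl, 3 higher and 2 lower in PF vs DNP, and 3 higher and 4 lower in PF vs Ctrl, at median log2 fold changes of -0.12, 0.024 and -0.14. For PF vs DNP the log2 value was -0.33 for Gata2, a MC transcription factor, and 0.34 for Fcer1g. Mcpt2 had -0.64 and Kit -0.25 in DNP vs Ctrl. Itgam, the most abundant of the macrophage and neutrophil markers, had 0.42 in DNP vs Ctrl, -0.24 in PF vs DNP and 0.18 in PF vs Ctrl, and Cd3e had 0.25 in PF vs Ctrl. Both of the PF vs Ctrl calls were lost with sum scaling, as were those of Fcer1a and Mcpt2 in PF vs DNP and of Fcer1a and Ms4a2 in PF vs Ctrl, and Hdc in PF vs DNP was not called with median ratios. The balance of MC markers in PF vs DNP thus depended on the scaling, with 5 higher and 1 lower with median ratios and 1 higher and 4 lower with sum scaling. What part such shifts have in the calcium entry genes was not tested. Of the markers of other cell types, Cd3e and Itgam reached the filter, and no fibroblast or epithelial marker did.

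Sequences before an annotated start were read from a RefSeq table of assembly GRCr8 that held 8 of the 10 members, Orai2 and Kcnn4 being the others. The 250 bases before each start were searched on both strands for TGANTCA (AP-1), TGACGTCA (CRE), GCGNGGGCG (EGR), GGAAA (core of NFAT sites), GGGCGG (GC box) and CCAAT, where EGR and GC box matches can overlap. The AP-1 and CRE letters were in 0 of the 8 members, and they were in 6.34% and 1.59% of all 33469 windows of the table. GGGCGG was in 6 members and 30.5% of windows, CCAAT in 4 and 34.0%, GCGNGGGCG in 3 (Stim1, Stim2 and Itpr3) and 4.29%, and GGAAA in 1 (Itpr1) and 56.9%. A match is a description of letters, not of a bound site. All 3 GCGNGGGCG matches lie within the gene, because the starts used for Stim1, Stim2 and Itpr3 lie inside it, as given below. Their count beside 4.29% therefore says nothing of sequence ahead of these genes. Of the 6 members with GGGCGG, only Orai1 has it ahead of the gene. Stim2 and Itpr2 are shown because they were lower together in PF, and Orai1 because it was not called in any comparison. Orai3, also not called in any, is not shown and has a CCAAT match but no GGGCGG match. All 3 are on the minus strand and are written 5′ to 3′ in the direction of transcription, with matches in capitals. The start that the table uses is the outer end of the RefSeq gene span for Orai1 and Orai3. For the other 6 it lies inside that span, by 764 bases for Stim1, 201 for Stim2, 39 for Itpr1, 30494 for Itpr2, 259 for Itpr3 and 1217 for Trpm4, so their windows lie partly or wholly within the gene. For Stim2 only the bases ahead of the span are printed, so its GCGNGGGCG and GGGCGG matches, which lie within the gene, are not shown. The whole window of Itpr2 lies within the gene. Orai1 is at chr12:39209031-39209280, Stim2 at chr14:61217282-61217330 and Itpr2 at chr4:181134868-181135117 of GRCr8.
Orai1: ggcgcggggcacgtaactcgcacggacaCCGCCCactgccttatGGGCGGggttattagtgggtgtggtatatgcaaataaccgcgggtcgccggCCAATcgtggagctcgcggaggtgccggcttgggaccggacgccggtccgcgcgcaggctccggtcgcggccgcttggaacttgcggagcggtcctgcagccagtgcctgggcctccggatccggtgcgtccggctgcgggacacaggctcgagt
Stim2: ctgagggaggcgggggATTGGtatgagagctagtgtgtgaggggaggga
Itpr2: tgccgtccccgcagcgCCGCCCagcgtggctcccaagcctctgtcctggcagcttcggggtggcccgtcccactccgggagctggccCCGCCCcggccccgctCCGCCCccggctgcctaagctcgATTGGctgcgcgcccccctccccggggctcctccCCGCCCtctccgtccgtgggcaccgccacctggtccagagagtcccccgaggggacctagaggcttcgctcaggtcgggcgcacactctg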

How the data were processed

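RNA-seq of 9 RBL-2H3 samples was used, grouped as Ctrl, DNP and PF by sample title. Per the labels, the authors' processing notes name HISAT2 2.0.4, Bowtie2 2.2.5, RSEM 1.2.12 and build rn6. A BGISEQ-500 is the sequencer of the published methods, while the labels name Illumina library protocols. The authors deposited 1 value per gene and sample, read here as FPKM because values have decimals and unequal sums. The files gave the genes in 5 different orders and were joined by gene identifier. Of 38490 gene rows, 20484 had no value and were left out.

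Computed here were limma 3.58.1 fits in R 4.3.3 (lmFit, eBayes with trend) on log2(FPKM + 1), each on the 6 samples compared, after a filter of 1 FPKM in at least 3 of them, and two-sided exact permutation tests in scipy 1.17.1 (Python 3.11.15, pandas 2.3.3). The fitting code was checked on made-up tables with known changes. DESeq2, used in the published methods, needs counts and was not run. Alternatives were a pseudocount of 0.1, no filter, median ratio and sum scaling, all 9 samples in 1 fit, the replicate number as a block, no trend, a threshold of 0.01, each sample left out in turn and PF sample 1 alone. Members and lists were chosen with earlier results of these data known. Named genes are all members, all stimulus and MC marker genes, up to 3 genes per list, direction and comparison among those called, and the 3 genes most like the called member with the largest change. Markers of other cell types, and Micu3 and Calu, were named after their values were seen. Plots were drawn with matplotlib 3.10.9. No coordinates of rn6 are given.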

Additional observations from a re-analysis of the deposited data

How the results depend on the processing

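Orai2 in all 3 comparisons, and Stim2 and Itpr2 in both PF comparisons, kept their direction and their call under each alternative with at least 2 samples a group. The count of members called in DNP vs Ctrl was 2 and became 1 with a threshold of 0.01, 1 with no filter, 1 with the replicate number as a block, and 1 to 2 with 1 sample left out. In PF vs Ctrl it was 6 and became 4 with a threshold of 0.01, 5 with a pseudocount of 0.1, sum scaling or the block, and 4 to 6 with 1 sample left out. It was 3 with PF sample 1 alone, a fit that takes its spread from the Ctrl samples and assumes that the lone sample varies like them, so neither its calls nor their loss bear on stability. In PF vs DNP it ran from 3 to 4. Reversals among the members concerned uncalled values. With sum scaling in PF vs DNP, Orai1 was at -0.0412, Itpr1 at -0.0707 and Trpm4 at -0.0313. With PF sample 1 alone, Orai3 was at 0.0329 and Trpm4 at -0.0058 in PF vs DNP, and Orai3 at 0.0034 in PF vs Ctrl. With median ratios Orai1 was at 0.0051 in PF vs Ctrl. With 1 sample left out, log2 fold changes ran from -0.0912 to 0.0717 for Orai3 in DNP vs Ctrl, from -0.0179 to 0.0453 for Itpr1 and from -0.0656 to 0.0938 for Trpm4 in PF vs DNP, and from -0.1263 to 0.0024 for Orai1 in PF vs Ctrl. The cause was not tested.

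Deviations of same-numbered samples from their group means had correlations across genes of -0.0739 to 0.0514 in DNP vs Ctrl, -0.0822 to 0.00049 in PF vs DNP and 0.083 to 0.189 in PF vs Ctrl, and the labels do not say whether the numbers pair samples. With the block, 2697, 4675 and 6009 genes were called in these comparisons, against 3031, 5042 and 5975 without it. With the block, limma adjusted p was 0.0503 for Itpr1 in DNP vs Ctrl and 0.0531 for Trpm4 in PF vs Ctrl, and no other member's call changed. Over the alternatives with at least 2 samples a group, limma adjusted p ran from 0.0115 to 0.0879 for Itpr1 in DNP vs Ctrl, from 0.00195 to 0.225 for Stim1 in PF vs DNP, and in PF vs Ctrl from 0.00741 to 0.0842 for Itpr3 and from 0.0154 to 0.14 for Trpm4. Of 335 alternative values for single members with at least 2 samples a group, 302 kept direction and side of the threshold, 21 lost the call, 2 gained it and 10 changed sign. Shares were judged against the larger SD of the groups compared, and all differences moved by less, some by more than the smaller SD. With 1 of 3 samples left out this was fixed in advance, since a group mean cannot then move by a whole SD. It therefore says nothing of the stability of the shares. With 1 sample left out, differences in share between overlapping groups ran from -0.0204 to 1.02 percentage points for Stim2 and from 0.499 to 2.04 for Itpr3 in DNP vs Ctrl. For Orai3 they ran from 0.239 to 0.759 in DNP vs Ctrl, from -0.117 to 0.245 in PF vs DNP and from 0.320 to 0.840 in PF vs Ctrl. The depth in reads is unknown, which limits what low values such as those of Kcnn4 can show.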
